A study of Mus musculus with 8 samples.

Results

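C8 is the cluster of cells that the study's authors named differentiated alveolar cells of gestation. Its members were taken from the deposited annotation as the cells that carry the cluster number C8 and passed every quality filter. There were 3744 such cells in the glands of pregnant mice, 1926 from mouse G_1 and 1818 from mouse G_2. In the whole series 3747 cells of C8 were found among 25010 passing cells of 8 libraries. C8 made up 68.3% of the 2821 passing cells of G_1 and 60.5% of the 3005 passing cells of G_2.

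The study profiled single epithelial cells of the mouse mammary gland at 4 stages, before, during and after lactation. Both mice used here were C57BL/6N females killed at day 14.5 of gestation, with 1 mouse per library, no transgene or treatment in the labels, and an age that is not given in the sources used here. Cells were sorted for the epithelial surface protein EpCAM after blood, endothelial and dead cells and doublets had been gated out, and were captured in droplets with the 10x Chromium 3' v2 chemistry. Levels are counts of unique molecular identifiers (UMIs, which tag single captured transcripts) summed over the cells of 1 mouse and given per 1000000 UMIs (CPM). The basal cells of the same 2 libraries, cluster C13, with 525 and 594 cells, served as the reference population.

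Alveolar cells line the secretory units that bud from the mammary ducts during pregnancy and make milk after birth. Prolactin acts through its receptor and the transcription factor Stat5, together with the factor Elf5, to switch on the genes of milk proteins. At mid gestation the alveoli are still being built by cell division, while caseins are already transcribed and milk fat is only beginning to be made.

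The C8 cells were deep. The median cell held 10900.5 UMIs in G_1 and 8676.5 in G_2, against 6201 and 6060 in C13, and the shallowest C8 cells held 4392 and 4051 UMIs. For any comparison of shares or scores between cells, each cell was therefore thinned at random to 3000 UMIs, which left out no C8 cell. Of the 2915 and 3106 barcodes of the 2 libraries, 93 and 99 also occurred in another library. None of these was a C8 cell, which was fixed in advance, since the authors' filters had removed cells with such barcodes. The authors had removed a cluster of C8 and C13 doublets, C20, and no doublet caller was run here.

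The 5 genes used to mark C8 were all present at high levels. *Csn2*, which encodes beta-casein, stood at 31078 CPM in G_1 and 20282 CPM in G_2, and *Csn1s2a*, an alpha-casein, at 39297 and 21270 CPM. *Glycam1*, a mucin-like milk protein, reached 5731 and 2431 CPM. *Elf5* stood at 495 and 417 CPM, and *Thrsp*, which promotes the synthesis of milk fatty acids, at 429 and 215 CPM. All 5 were higher in G_1 than in G_2, while in C13 *Elf5*, *Thrsp* and *Glycam1* stood at 90.7 CPM or less in both mice.

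Most markers of other cell types were low in C8. The 20 basal genes summed to 757 and 819 CPM in C8, against 50299 and 44002 CPM in C13, with *Krt14* at 33.5 and 34.3 CPM and *Krt5*, its keratin partner, at 3.93 and 3.32 CPM. Of 10 hormone-sensing luminal genes, which summed to 195 and 236 CPM, the progesterone receptor *Pgr* was at 0.91 and 1.28 CPM. Of the 2 genes of this list from 50 CPM, 1 was higher than in C13 and 1 lower. The prolactin receptor *Prlr*, also a hormone-sensing marker, was seen at 3000 UMIs in 15.6% and 13.9% of C8 cells. In C13 its share was 0.57% and 1.35%. The 4 immune, 4 endothelial, 4 fibroblast and 4 adipocyte genes summed to at most 81.7, 5.10, 37.1 and 25.4 CPM, and the leukocyte gene *Ptprc* reached 1.23 CPM at most. The 4 red cell genes summed to 1.625 CPM in G_1 and 2.004 CPM in G_2. *Hbb-bt*, an adult globin, was at 0 in both mice, but *Hba-a1*, another globin, had 42 and 38 UMIs in C8. Of these UMIs 95.2% and 68.4% lay in the C8 cells with at least 3 *Wfdc12* UMIs of 3000 that are described below. *Plin1*, the droplet protein of adipocytes, was at 0 in G_1 and 0.05 CPM in G_2. *Aldh1a3* and *Kit*, markers of luminal progenitors, were present at 24.8 and 41.3 CPM and at 66.1 and 86.7 CPM, against 379 and 467 CPM and 206 and 233 CPM in the alveolar progenitor cluster C10 of the same mice. The 10 progenitor genes together summed to 859 and 983 CPM in C8, with *Lcn2* highest and *Cd14* next at 150 and 267 CPM, and 2 of the 3 genes of the list from 50 CPM were higher than in C13. The 5 markers were thus high where the label of C8 puts them, with low basal levels beside measurable progenitor and *Prlr* transcripts.

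The promoters of genes that carry the results are shown here, since milk genes moved with one another and so did mitotic genes. RefSeq sequences of the GRCm38.p6 build were read for the 250 bases before each RefSeq gene start. The 5 casein genes lie within 1 stretch of chromosome 5 of GRCm38, from base 87666208 at the start of *Csn1s1* to base 87932665 at the end of *Csn3* in the GENCODE annotation. In 3 milk genes the capitals mark TTCNNNGAA, the palindromic motif that Stat factors bind, which lies 93, 100 and 145 bases before the start of *Csn2*, *Csn1s1* and *Glycam1*.

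Csn2 (chr5:87699426-87699675, - strand): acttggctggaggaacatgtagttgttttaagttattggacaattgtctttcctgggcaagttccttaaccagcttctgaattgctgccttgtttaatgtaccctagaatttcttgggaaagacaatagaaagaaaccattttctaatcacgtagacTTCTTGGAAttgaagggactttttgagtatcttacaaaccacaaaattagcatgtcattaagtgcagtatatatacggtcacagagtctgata
Csn1s1 (chr5:87665958-87666207, + strand): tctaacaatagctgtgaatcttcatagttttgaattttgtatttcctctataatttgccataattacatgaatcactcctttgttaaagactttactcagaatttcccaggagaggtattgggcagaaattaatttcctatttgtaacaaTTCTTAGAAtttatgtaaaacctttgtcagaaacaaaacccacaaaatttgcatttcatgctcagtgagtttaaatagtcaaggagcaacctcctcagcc
Glycam1 (chr15:103565082-103565331, - strand): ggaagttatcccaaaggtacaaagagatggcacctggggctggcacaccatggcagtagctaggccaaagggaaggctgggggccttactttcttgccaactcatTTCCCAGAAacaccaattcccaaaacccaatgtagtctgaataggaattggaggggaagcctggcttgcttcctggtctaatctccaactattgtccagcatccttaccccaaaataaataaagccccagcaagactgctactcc

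In 3 mitotic genes the capitals mark CCAAT on either strand, where ATTGG is the same motif read on the opposite strand. *Top2a*, the topoisomerase that untangles chromosomes, held 6 matches, *Ube2c*, a ubiquitin-conjugating enzyme of the anaphase-promoting complex, held 6, of which 2 overlap in CCAATTGG, and *Mki67*, a coat protein of mitotic chromosomes, held 3.

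Top2a (chr11:99024190-99024439, - strand): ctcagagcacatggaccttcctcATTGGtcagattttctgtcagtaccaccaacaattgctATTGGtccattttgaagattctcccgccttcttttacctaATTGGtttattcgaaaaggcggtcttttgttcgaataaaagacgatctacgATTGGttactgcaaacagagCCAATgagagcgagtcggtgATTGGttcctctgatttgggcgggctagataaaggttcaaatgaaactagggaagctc
Ube2c (chr2:164769679-164769928, + strand): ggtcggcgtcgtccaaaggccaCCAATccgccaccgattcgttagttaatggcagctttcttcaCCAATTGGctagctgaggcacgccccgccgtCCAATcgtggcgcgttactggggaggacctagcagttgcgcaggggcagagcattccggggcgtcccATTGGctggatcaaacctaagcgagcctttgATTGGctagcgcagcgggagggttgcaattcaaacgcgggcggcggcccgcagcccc
Mki67 (chr7:135716380-135716629, - strand): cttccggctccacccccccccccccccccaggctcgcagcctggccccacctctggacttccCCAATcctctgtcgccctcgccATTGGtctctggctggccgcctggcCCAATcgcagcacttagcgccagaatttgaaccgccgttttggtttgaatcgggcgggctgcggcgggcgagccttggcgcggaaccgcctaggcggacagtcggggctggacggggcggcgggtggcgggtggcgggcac

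TTCNNNGAA was found in 7.02% of all 32851 promoters of this length, or in 8.13% of 27025 genes, in 3 of the 6 milk protein genes with a promoter in the table, of 8 listed, and in 1 of 11 other milk genes, of 15 listed, which is near the share over all genes. CCAAT was found in 33.8% of all promoters, or in 37.5% of genes, and in 30 of the 38 mitotic genes matched, of 46 listed. These are matches of letters within a fixed window.

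C8 differed from the basal cells by its milk, lipid and tight junction genes and by low levels of the contractile genes. Since the cells had been clustered on these genes, the difference is described without a test. Among 3531 genes with at least 50 CPM in C8 or C13, 490 (13.9%) were at least 2-fold higher in C8 in both mice and 852 (24.1%) at least 2-fold lower, and the median gene lay at -0.12 on the log2 scale. All 4 caseins at that level were higher, with a median log2 ratio of 5.56, as were 8 of 10 other milk genes (median 5.10). *Btn1a1*, butyrophilin of the milk fat globule, stood at 115 and 82.8 CPM against 1.01 and 0.92 CPM in C13. *Olah*, which releases the medium-chain fatty acids of milk, stood at 125 and 85.6 CPM against 2.02 and 1.37 CPM.

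The other genes farthest above C13 were less familiar as milk genes. *1700012B07Rik* stood at 92.3 and 73.1 CPM against 0.25 and 0.46 CPM. *Plb1*, a phospholipase, stood at 287 and 348 CPM against 4.80 and 4.12 CPM, and the potassium channel gene *Kcnn4* at 177 and 162 CPM against 1.52 and 2.97 CPM. Epithelial barrier genes formed a further group, in which 6 of 9 tight junction genes were higher (median 4.04) and *Cldn3* reached 1033 and 1190 CPM against 23.0 and 22.4 CPM. *Krt18*, a luminal keratin, stood at 2563 and 3177 CPM against 183 and 182 CPM. Not every gene of milk was higher, since *Lcn2*, an iron-scavenging protein, was at 528 and 505 CPM against 1838 and 1895 CPM, and *Mfge8*, lactadherin, at 183 and 199 CPM against 705 and 777 CPM.

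Of the 20 basal genes that reached the threshold, 20 were lower in C8, with a median of -6.91. *Acta2*, the smooth muscle actin of the contractile apparatus, stood at 73.5 and 69.3 CPM against 14200 and 10565 CPM. *Fst*, follistatin, stood at 9.03 and 7.29 CPM against 1914 and 1611 CPM, and *Ccnd2*, a D-type cyclin, at 2.42 and 2.69 CPM against 454 and 436 CPM. *Igfbp2*, a binding protein of insulin-like growth factors, stood at 4.76 and 5.10 CPM against 972 and 798 CPM. These 4 genes were named for their large folds in both mice. That the folds exceeded the difference between the mice was therefore fixed by the choice and is no result.

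**Figure D1:**
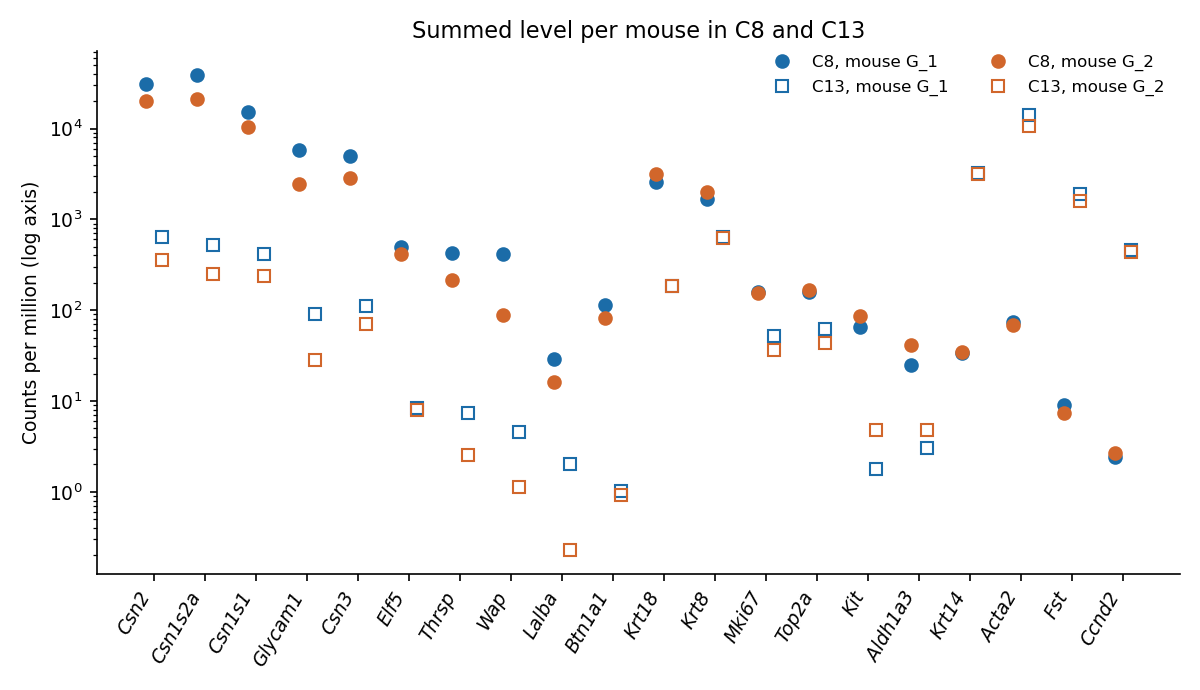
Summed level of 20 genes (CPM, log axis) in C8 (filled circles) and C13 (open squares), with mouse G_1 in blue and mouse G_2 in orange and 1 point per mouse. Milk genes of C8 lie above those of C13 and are higher in G_1 than in G_2, as for *Wap* at 410 and 87.7 CPM, while *Krt14*, *Acta2*, *Fst* and *Ccnd2* lie lower in C8.

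The 5 caseins took 9.05% of all C8 UMIs in G_1 and 5.49% in G_2. In C13 they took 0.168% and 0.0912%. Caseins were also found in cells that should not make them: at 3000 UMIs *Csn2* was seen in 82.9% and 66.5% of C13 cells, against 100% and 99.7% of C8 cells. A casein UMI by itself therefore does not mark a C8 cell. The median casein share at 3000 UMIs was 8.60% and 4.73% in C8 and 0.17% and 0.08% in C13. The lowest C8 cells, at 0.13% and 0.07%, lay below these C13 medians. The level thus parted the typical cells of the clusters but did not mark every C8 cell. For *Elf5* the same share was 74.1% and 69.6% in C8 and 3.24% and 2.19% in C13, and at full depth it was 96.4% and 92.7% in C8 and 6.10% and 5.56% in C13. Late milk genes were detected in fewer cells. *Wap*, the whey acidic protein, was seen at 3000 UMIs in 30.5% and 11.9% of C8 cells (1.90% and 0.34% of C13), and *Lalba*, the alpha-lactalbumin needed to make lactose, in 6.96% and 4.13% (1.33% and 0.17% of C13). At full depth the shares in C8 were 50.4% and 25.1% for *Wap* and 17.6% and 10.1% for *Lalba*, so that detection rose with depth and these are no limits on the cells that express them.

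Single C8 cells differed widely in their milk transcripts. The casein share of a cell ran from 0.13% to 27.7% in G_1, with a median of 8.60%, and from 0.07% to 20.5% in G_2, with a median of 4.73%. *Csn1s2a* had a median of 110 UMIs of 3000 in G_1 and 43 in G_2. In the lowest-ranked 10% of cells it had at most 4 and 1 UMIs, and in the highest-ranked 10% at least 234 and 166. The Fano factor, the variance over the mean of the thinned counts, was 64.9 and 70.0 for this gene, against a median of 1.04 in both mice over 3428 genes with a mean of at least 0.1 UMI. It exceeded 2 in both mice for 70 genes. *Glycam1* (38.1 and 36.6), *Csn2* (27.7 and 24.4) and *Wap* (11.7 and 7.67) were among them, beside *Wfdc12* (49.5 and 33.8), a protease inhibitor gene, the MHC class II invariant chain *Cd74* (7.55 and 9.31) and the metallothionein *Mt1* (6.41 and 6.57).

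The genes whose counts followed *Csn2* most closely across C8 cells were other milk genes. Pearson's correlation of log2(thinned count + 1) with *Csn2* over 1926 and 1818 cells was 0.87 and 0.79 for *Csn1s2a*, 0.81 and 0.75 for *Csn1s1*, 0.69 and 0.57 for *Glycam1* and 0.64 and 0.56 for *Csn3*. *Plin2*, which coats lipid droplets, followed at 0.53 and 0.49, and *Trf*, transferrin, at 0.51 and 0.47. Since all genes of a thinned cell share 1 fixed total, a cell with more casein has fewer UMIs left for the rest, and these values are given as a description.

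C8 held many cells with mitotic transcripts. A cell was called dividing when at least 5 of its 3000 UMIs fell on a list of 46 mitotic genes and non-dividing when at most 1 did, so that the words name a range of this score and not an observed division. By this measure 48.7% of C8 cells in G_1 (937 cells, exact 95% interval 46.4 to 50.9%) and 43.9% in G_2 (799 cells, 41.7 to 46.3%) were dividing, a mean of 46.3% ± 3.32 (SD, n = 2 mice). The intervals cover counting error only. In C13 the shares were 15.8% and 12.6%. In the small hormone-sensing cluster C5, with median depths of 6223.5 and 5514 UMIs, 0 of 20 cells (upper bound 16.8%) and 7.32% of 41 were dividing. In C10 the shares were 55.1% and 41.3%, on either side of those of C8. The score was continuous, with 150 and 149 C8 cells within 1 UMI of the threshold of 5, and 585 and 603 cells were non-dividing.

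A list of 50 S phase genes, which copy DNA, gave a similar picture. In G_1 30.7% of C8 cells passed both scores, 17.9% the mitotic score alone, 8.00% the S phase score alone and 43.4% neither. In G_2 the shares were 27.3%, 16.6%, 8.58% and 47.5%. In C13 82.7% and 85.2% of cells passed neither. Calls of this kind rest on a few UMIs per cell. Free RNA may contribute to them, but its part was not measured.

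**Figure D2:**
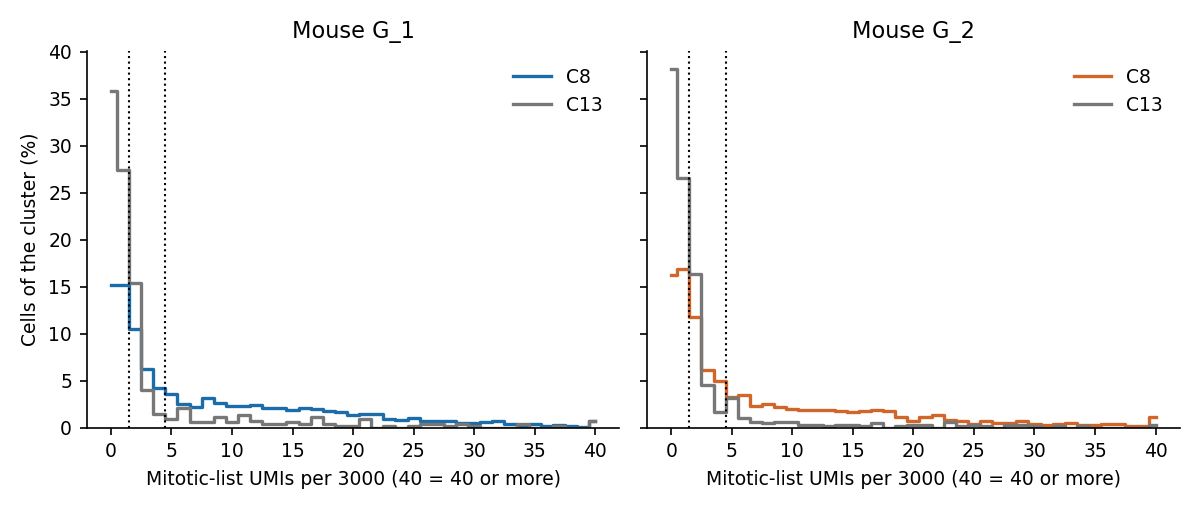
Distribution of mitotic-list UMIs per 3000 UMIs over the cells of C8 (coloured) and C13 (grey) in each mouse, as the percentage of cells at each whole number, with the last bin holding 40 or more. Dotted lines separate the non-dividing (at most 1) and dividing (at least 5) ranges, and C8 has a long shelf to the right of them, with 15.2% and 16.2% of its cells at 0.

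Milk transcripts made up a smaller share of the UMIs in dividing than in non-dividing C8 cells of the same mouse. UMIs were summed per mouse and class and compared with edgeR's quasi-likelihood test with mouse as a block and Benjamini-Hochberg adjustment. Each edgeR p and SE below comes from 2 mice and rests on a spread largely shared across genes. It therefore does not show how far the 2 mice lay apart for a single gene. Of 11453 genes, 2035 (17.8%) were higher and 2090 (18.2%) lower in dividing cells at an adjusted p of 0.05, or 36% in all. DESeq2 was more sparing, and 661 (5.77%) and 575 (5.02%) genes were called by both tools. The median gene lay at -0.01 on the log2 scale, and without scaling factors between libraries it lay at 0.12, with 3174 genes higher and 1149 lower. Dividing cells were also deeper, with a median of 13396 and 12263 UMIs against 8523 and 6789, and held more genes at equal depth, 1297 and 1337 per 3000 UMIs against 1172 and 1226. All levels are shares of UMIs, so a lower level in the deeper dividing cells does not mean fewer transcripts per cell. The part of depth in the differences was not tested beyond the values within 1 depth class given below. Mitochondrial mRNAs were lower in dividing cells for 8 of 9 genes (6 without scaling factors, median -0.32), and their part was not tested.

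The genes of replication rose nearly as one group in dividing cells, though they had no part in the score. Of 50 S phase genes 49 were higher by edgeR, 42 of them by both tools, with a median log2 change of 1.68, and *Ung*, a uracil glycosylase, was the exception at 15.3 and 17.9 CPM in non-dividing and 18.5 and 16.3 CPM in dividing cells. *Rrm2*, a subunit of ribonucleotide reductase, rose from 8.59 to 81.7 CPM in G_1 and from 4.33 to 54.3 CPM in G_2. All 28 genes of replicating chromatin and spindle tubulin were higher by both tools (median 1.55), and *Hmgb2*, a chromatin protein, rose from 61.7 to 645 CPM and from 71.1 to 666 CPM. The regulator *Foxm1*, which drives transcription before mitosis, stood at 0.17 and 0.82 CPM in non-dividing and 14.5 and 12.8 CPM in dividing cells (edgeR adjusted p 1.0e-37, DESeq2 adjusted p 3.3e-04), and no fold is given because the lower levels rest on very few UMIs. Both mice showed each of these rises. The histone gene *Hist1h2ae* rose from 7.56 to 208 CPM and from 5.36 to 151 CPM, and since histone genes have near-identical copies the gene that gave the reads is uncertain.

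All 15 milk genes other than caseins were lower in dividing cells by edgeR (14 without scaling factors), 13 of them by both tools, with a median of -0.62, and all 5 caseins were lower by both tools and under either scaling, with a median of -0.50. Without scaling factors the 2 medians were -0.48 and -0.36. *Lalba* fell most, from 55.5 CPM in non-dividing to 16.6 CPM in dividing cells of G_1 and from 33.8 to 8.99 CPM in G_2, a log2 change of -1.94 ± 0.11 (SE, n = 2 mice, edgeR adjusted p 3.7e-62, DESeq2 adjusted p 8.7e-16). *Wap* fell from 798 to 285 CPM and from 125 to 61.4 CPM (-1.47 ± 0.05). Its log2 change was -1.48 in G_1 alone and -1.03 in G_2 alone, farther apart than this SE. *Pigr*, which carries IgA into milk, fell from 70.9 to 28.1 CPM and from 46.4 to 18.5 CPM, and *Glycam1* from 7773 to 5077 CPM and from 3428 to 2034 CPM. In each of these genes both mice moved the same way, and the drop was larger than that of the 4 major caseins.

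The major caseins fell less. *Csn1s2a* went from 45913 to 37233 CPM and from 27002 to 19154 CPM (log2 change -0.53 ± 0.03), and *Csn2* from 33844 to 30392 CPM and from 22169 to 19726 CPM (-0.29 ± 0.03). Without scaling factors these 2 changes were smaller, at -0.40 and -0.16. *Csn1s2b*, a minor alpha-casein, fell further, from 33.3 to 17.3 CPM and from 20.4 to 7.59 CPM. *Muc15*, a mucin of the milk fat globule, moved least of the milk genes, from 2079 to 2055 CPM in G_1 and from 1845 to 1846 CPM in G_2. Its log2 change was -0.14 with the library scaling factors and -0.01 without them.

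Genes of the fat droplet and of the luminal epithelium were mostly lower too, while those of lipid synthesis were not of 1 direction. All 9 genes of the milk fat droplet were lower by edgeR (8 without scaling factors) and 6 by both tools, such as *Plin2* from 1339 to 932 CPM and from 1360 to 894 CPM. Of 16 fatty acid genes 5 were lower and 2 higher (5 and 5 without scaling factors), with *Scd1*, the stearoyl-CoA desaturase, falling from 544 to 368 CPM and from 600 to 372 CPM. Of 12 triglyceride genes 4 were lower and 0 higher (2 and 2 without scaling factors), and of 18 cholesterol genes 3 were lower and 6 higher (1 and 9 without), none of the latter by both tools. Luminal keratins were lower for 8 of 9 genes (6 without scaling factors), including *Krt18* from 3162 to 2231 CPM and from 3926 to 2786 CPM, and *Cldn4*, a tight junction protein, went from 765 to 460 CPM and from 769 to 467 CPM. Over 15 tight junction genes 10 were lower and 0 higher, but 4 and 2 without scaling factors. The luminal progenitor genes went the same way, with 6 of 9 lower and 0 higher (median -0.42), against 18.2% of all genes lower. By both tools 4 were lower, and without scaling factors 6 were lower and 1 higher. *Elf5* went from 546 to 472 CPM and from 489 to 385 CPM, a log2 change of -0.41 ± 0.05 (-0.28 without scaling factors). *Stat5a* did not pass, at 49.8 and 50.9 CPM in non-dividing and 55.3 and 60.7 CPM in dividing cells (edgeR adjusted p 0.57).

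Outside these lists the largest falls were in *Ifit1*, an interferon-induced gene, from 33.5 to 7.95 CPM and from 34.8 to 9.06 CPM (log2 change -2.14 ± 0.13), and in *Cck*, cholecystokinin, from 138 to 54.0 CPM and from 100 to 38.7 CPM. *Gbp2*, another interferon-induced gene, went from 31.3 to 10.3 CPM in G_1 but from 12.98 to 10.8 CPM in G_2, and passed only in edgeR (DESeq2 adjusted p 0.39). When only cells of the middle depth class were used, an alternative added after seeing the data, the median change was -0.95 for the 15 other milk genes and -1.24 for the 8 milk protein genes. The casein share of single cells differed less, with a median of 8.47% and 4.63% in dividing and 9.40% and 5.30% in non-dividing cells.

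Some genes changed differently with division in C8 than in C13. An interaction term in edgeR's quasi-likelihood test, added after seeing the data, called 200 of 11686 genes (1.71%), of which 121 (1.04%) changed more positively in C8 and 79 (0.676%) less so. This split depended on the scaling, at 76 and 122 with RLE factors and 133 and 149 without factors. *Csn3*, kappa-casein, fell from 6094 to 4592 CPM and from 3290 to 2637 CPM in C8, while in C13 it rose from 94.4 to 238 CPM and from 64.7 to 112 CPM. The level in C13 stayed far below that of C8 in every class, and the dividing class of C13 held only 83 and 75 cells.

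Cells rich in casein also held more of most other milk, milk fat and secretory transcripts. The cells of each mouse were ranked by their casein share at 3000 UMIs and divided into 3 classes of 642 cells in G_1 and 606 in G_2. The median casein share was 14.3% and 9.57% in the casein-high class and 2.83% and 1.47% in the casein-low class. Caseins were left out of the library totals and of the test. Of 11329 genes, 2022 (17.8%) were higher and 1767 (15.6%) lower in casein-high cells by edgeR's quasi-likelihood test with mouse as a block (33.4% in all), and 612 (5.4%) and 341 (3.01%) were called by both tools. Median depth was 11690 and 9073.5 UMIs in the casein-high and 9332 and 7797 in the casein-low class. Mitochondrial mRNAs moved with the classes too, higher in casein-high cells for 7 of 9 genes (median 0.46), with a median mitochondrial share of 0.87% and 0.82% against 0.75% and 0.69% of UMIs, and their part in the differences was not tested.

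Of 15 other milk genes 13 were higher in casein-high cells, 12 of them by both tools, with a median log2 change of 1.89. *Wap* rose most, from 17.1 to 1165 CPM in G_1 and from 5.18 to 258 CPM in G_2, a log2 change of 6.00 ± 0.10 (SE). *Glycam1* rose from 494 to 14141 CPM and from 101 to 6814 CPM (5.42 ± 0.06). Its log2 change was 4.84 in G_1 alone and 6.08 in G_2 alone, farther apart than this SE. *Spp1*, osteopontin, rose from 6.88 to 308 CPM and from 2.59 to 82.3 CPM, and *Lalba* from 5.09 to 72.1 CPM and from 2.45 to 38.5 CPM. In every one of these genes the casein-high class of each mouse lay above the casein-low class of both mice. *Mfge8* was the exception among milk genes and fell from 257 to 173 CPM and from 293 to 155 CPM.

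Genes of milk fat rose with the caseins. Of 16 fatty acid genes 12 were higher and none lower (median 0.83), of 12 triglyceride genes 9 were higher and none lower (0.57), and of 9 fat droplet genes 7 were higher and 1, *Mfge8*, was lower (1.11). *Fabp3*, a fatty acid binding protein, rose from 106 to 1783 CPM and from 30.5 to 780 CPM. *Cd36*, which takes up fatty acids, rose from 60.2 to 489 CPM and from 25.5 to 356 CPM, and *Olah* from 34.9 to 242 CPM and from 23.5 to 174 CPM. *Thrsp* rose from 136 to 831 CPM and from 60.5 to 430 CPM, and *Plin2* from 517 to 1790 CPM and from 505 to 1777 CPM. The levels of *Plin2* in the 2 mice were nearly the same in each class, while those of *Fabp3* and *Thrsp* were higher in G_1 in both classes.

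The secretory machinery rose more modestly. Of 22 genes of protein entry into and export from the endoplasmic reticulum 17 were higher and none lower, with a median of 0.40, and *Xbp1*, a factor that expands this compartment, rose from 138 to 247 CPM and from 123 to 239 CPM. Of 12 glucose and lactose genes 7 were higher and none lower (0.41), with *B4galt1*, the enzyme that lactalbumin turns into lactose synthase, from 57.7 to 119 CPM and from 46.3 to 87.3 CPM. *Elf5* rose from 377 to 711 CPM and from 331 to 567 CPM, a log2 change of 0.87 ± 0.06. The prolactin receptor *Prlr* stood at 57.3 and 52.1 CPM in casein-low and 68.5 and 65.9 CPM in casein-high cells and passed in edgeR but not in DESeq2 (adjusted p 0.003 and 0.30). *Stat5a* did not pass, at 55.8 and 53.7 CPM against 60.8 and 60.4 CPM (edgeR adjusted p 0.16).

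The 9 progenitor genes tested had no common direction, with 5 lower and 3 higher in casein-high cells and 2 each way by both tools. *Aldh1a3*, the one that fell most, stood at 54.3 and 75.4 CPM in casein-low and 9.23 and 16.7 CPM in casein-high cells, and *Kit* at 109 and 127 CPM and 48.1 and 57.4 CPM. *Krt7*, a keratin of simple epithelium, went from 54.0 to 10.4 CPM and from 68.9 to 13.8 CPM, and *Fbn2*, fibrillin of the extracellular matrix, from 21.4 to 1.28 CPM and from 42.3 to 2.63 CPM. The small heat shock protein gene *Cryab* went from 97.4 to 17.1 CPM and from 98.3 to 12.5 CPM. *H2-Aa*, an MHC class II chain, went from 20.5 to 5.64 CPM and from 41.6 to 10.4 CPM. Of the 3 immune genes tested 2, *H2-Aa* and *Cd74*, were lower in casein-high cells.

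**Figure D3:**
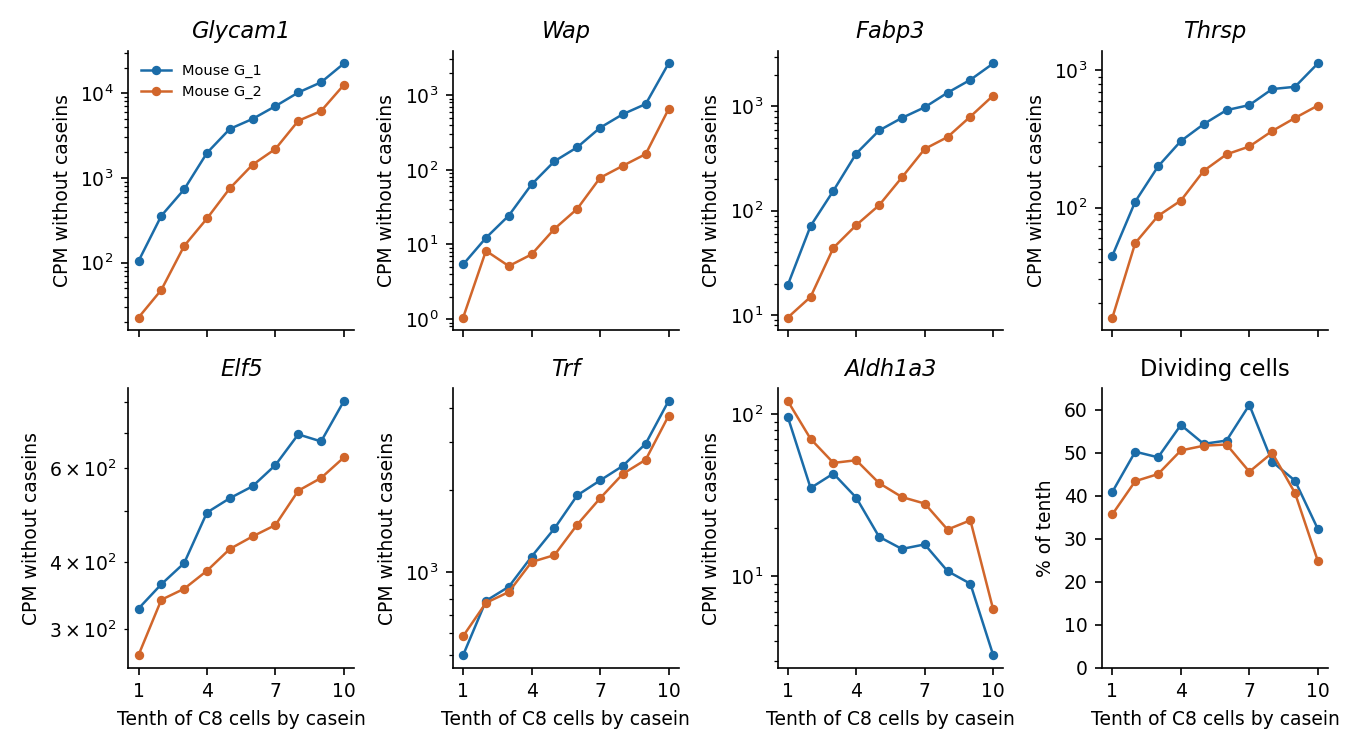
Level of 7 genes (CPM without caseins, log axes) and percentage of dividing cells (linear axis) in 10 equal bins of the C8 cells of each mouse, ordered from low to high casein share, with 1 point per bin and mouse. *Glycam1* climbs from 104.5 to 22323.5 in G_1 and from 22.6 to 12497.5 in G_2, *Aldh1a3* falls from 96.4 to 3.26 and from 121 to 6.24, and the dividing share is highest in the middle bins.

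Over 10 bins of casein share, division followed an arch. In G_1 40.9% of cells in the lowest bin, 61.1% in the bin ranked 7 and 32.3% in the highest bin were dividing, and in G_2 35.7%, 51.9% in the bin ranked 6 and 24.9%. Over the 3 classes the dividing share was 49.1%, 53.9% and 43.0% from low to high in G_1 and 43.2%, 49.3% and 39.3% in G_2. The mitotic genes themselves did not part the casein-high from the casein-low class, since 8 of 46 were higher and 2 lower by edgeR, none by both tools, with a median of 0.09. *Elf5* rose along the bins from 328 to 803 CPM in G_1 and from 268 to 629 CPM in G_2. *Trf* rose from 499 to 4225 CPM and from 585 to 3729 CPM.

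The deepest C8 cells held the largest share of dividing cells. With cells divided into 3 classes by total UMIs, the dividing share at equal depth of 3000 UMIs was 24.6%, 53.4% and 67.9% from shallow to deep in G_1, where the median cells held 6816.5, 10900.5 and 20212.5 UMIs. In G_2 it was 16.7%, 44.2% and 71.0%, at 5489, 8676.5 and 18441.5 UMIs. Of 11480 genes 1244 (10.8%) were higher and 1295 (11.3%) lower in deep than in shallow cells by edgeR's quasi-likelihood test, and 242 (2.11%) and 272 (2.37%) by both tools, or 22.1% in all by edgeR. Without scaling factors 1907 were higher and 813 lower. All 46 mitotic genes were higher, 41 of them by both tools, with a median of 1.45, and 43 of 50 S phase genes. *Cdk1*, the kinase that starts mitosis, rose from 24.9 to 106 CPM and from 22.5 to 109 CPM (log2 change 2.09 ± 0.10), and *Top2a* from 51.7 to 179 CPM and from 35.7 to 194 CPM.

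Of 5 caseins 3 were slightly higher and 1 was lower in the summed counts of deep cells, with log2 changes from -0.59 to 0.27 and a median of 0.17 (0.49 in non-dividing cells alone), and the median casein share of single cells was 6.32%, 9.67% and 9.52% from shallow to deep in G_1 and 3.23%, 5.92% and 5.07% in G_2. *Csn2* stood at 25161 and 16993 CPM in shallow and 31540 and 19937 CPM in deep cells, a log2 change of 0.20 ± 0.04 that passed in edgeR but not in DESeq2 (adjusted p 2.8e-04 and 0.39), and *Csn3* at 4740 and 2636 CPM against 4727 and 2596 CPM (edgeR adjusted p 0.08). Of 15 other milk genes 5 were higher and 5 lower, and *Lalba* fell from 41.5 to 21.6 CPM and from 23.1 to 11.8 CPM. Luminal keratins were lower in deep cells for 8 of 9 genes, with *Krt18* at 3296 and 3883 CPM in shallow and 2326 and 2917 CPM in deep cells. Mitochondrial mRNAs were lower for 7 of 9 (median -0.48). In non-dividing cells alone, an alternative added after seeing the data, 267 genes were called in place of 2539.

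**Figure D4:**
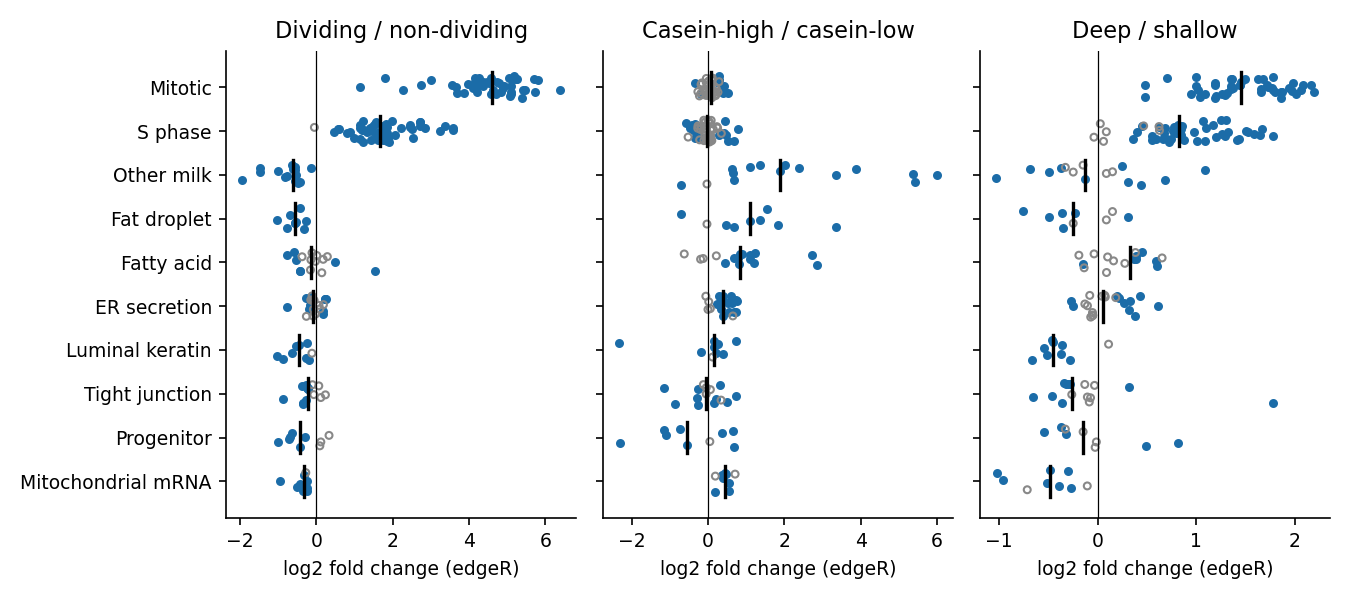
Log2 fold change (edgeR) of each tested gene in 10 gene lists for dividing over non-dividing, casein-high over casein-low and deep over shallow C8 cells, with filled blue points for adjusted p below 0.05, open grey points for the rest and a bar at the median of each list. The mitotic list defined the classes of the left panel and is no result there, while the other milk genes lie to the left (median -0.62) in the dividing panel and to the right (1.89) in the casein panel.

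Several milk genes were higher in C8 of mouse G_1 than in C8 of mouse G_2. Among 2712 genes with at least 50 CPM in C8 of either mouse, 9 (0.332%) were at least 2-fold higher in G_1 and 0 (0%) in G_2, which is a comparison of 2 libraries without replicates. *Wap* led, at 410 CPM in G_1 and 87.7 CPM in G_2, or 4.68-fold (95% counting interval 4.46 to 4.91). These intervals treat UMIs as independent counts. They leave out the spread between cells and between mice, and so are too narrow. *Spp1* was 3.97-fold (3.64 to 4.34), *Fabp3* 2.57-fold and *Glycam1* 2.36-fold higher (2.33 to 2.38), and *Thrsp* lay just below the threshold at 1.99-fold. The chemokine gene *Cxcl1* was 2.29-fold and the heat shock genes *Hspa1a* and *Hspa1b*, whose reads cannot always be told apart, 2.10-fold and 2.02-fold higher. Milk RNA was higher in the C13 cells of G_1 too, by 1.89 for *Wap* and 1.66 for *Glycam1* on the log2 scale, against 2.23 and 1.24 in C8, and *Hspa1a* by 1.56 against 1.07. By the same rule 13 of 3103 genes were higher in the C13 cells of G_1 and 0 lower. *G0s2* and *Rgs16*, at 3.02-fold and 2.40-fold, complete the 9 genes of C8. *Basp1*, a membrane protein gene, was the gene highest in G_2, at 1.87-fold.

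About 1% of the C8 cells held most of the *Wfdc12* and *Calca* transcripts of the cluster. These cells were picked after their values were seen, as those with at least 3 *Wfdc12* UMIs of 3000, and numbered 22 in G_1 (1.14%) and 20 in G_2 (1.10%). They accounted for 92.6% and 93.0% of the *Wfdc12* UMIs of C8 and 94.4% and 74.0% of those of *Calca*, the calcitonin gene. *Calca* stood at 2037 and 1618 CPM in them against 1.80 and 12.9 CPM in other C8 cells, and *Cited1*, a transcriptional coregulator of hormone-sensing cells, at 111 and 229 CPM against 0.96 and 2.24 CPM. The hormone-sensing cluster C5 had 10078 and 9196 CPM of *Calca* and 909 and 1734 CPM of *Cited1*.

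The same cells also held alveolar transcripts. *Elf5* stood at 343 and 248 CPM, against 497 and 420 CPM in other C8 cells and 8.11 and 11.6 CPM in C5, and *Csn2* at 16431 and 9845 CPM, against 31296 and 20517 CPM in other C8 cells. Their median depth was 16728 and 29161 UMIs, against 10866 and 8604 in other C8 cells and 6223.5 and 5514 in C5. The median casein share was 3.97% and 1.65%, so that most of them fell in the casein-low class. Whether they are doublets was not tested. Without them the casein-high to casein-low change of *Wfdc12* went from -3.97 to -0.71, that of *Igf2*, an insulin-like growth factor, from -4.63 to -2.63 and that of *Calca* from -3.98 to -3.15, and the deep to shallow change of *Wfdc12* from 2.88 to 0.32 and of *Calca* from 4.15 to 2.66.

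**Figure D5:**
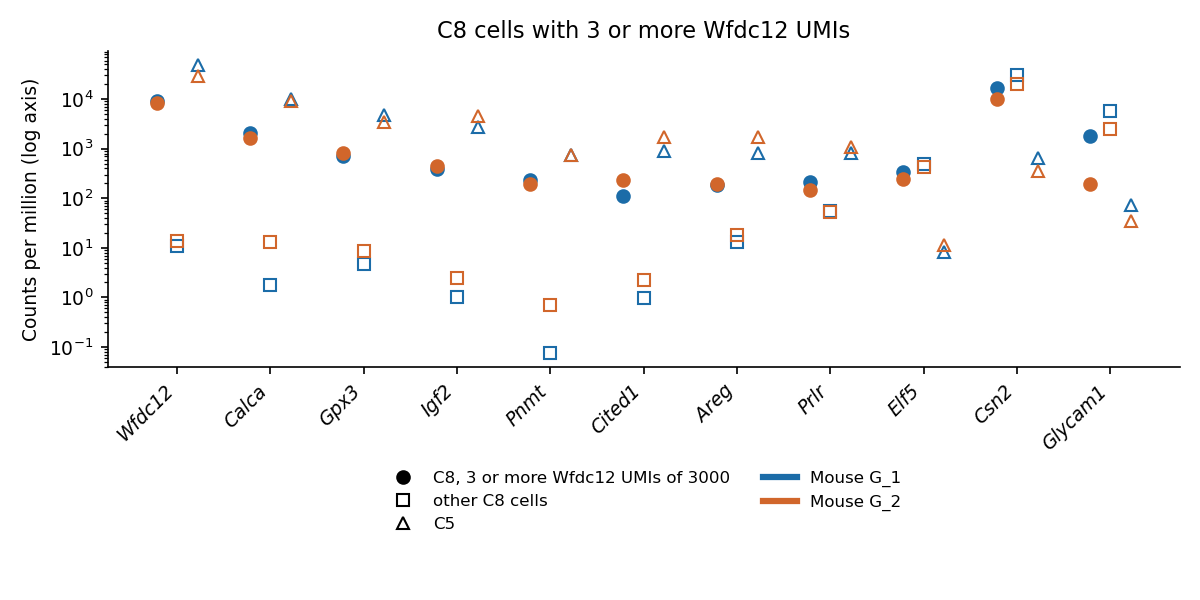
Level of 11 genes (CPM, log axis) in the 22 and 20 C8 cells with at least 3 *Wfdc12* UMIs of 3000 (filled circles), the other C8 cells (open squares) and cluster C5 (triangles), with mouse G_1 in blue and G_2 in orange. The filled circles lie between the other 2 groups for *Wfdc12*, *Calca* and *Cited1*, as at 2037 and 1618 CPM for *Calca*, and also for *Elf5*.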

How the data were processed

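Deposited files held, per mouse, a matrix of UMI counts per gene and cell that the authors made with Cell Ranger, with STAR and mm10 named in the submitters' processing notes, and an annotation of the authors' clusters and quality flags in which the mitochondrial share is a fraction. Cell totals in the annotation and the matrices differed by at most 3 UMIs. The members, gene lists and tests were chosen with earlier results of these data known.

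Here cells were joined by library and barcode, and counts were summed per mouse and class. Cells were thinned to 3000 UMIs to set classes (5 or more and at most 1 mitotic UMIs, or 3 equal classes of casein share or depth). C8 cells in the top 5% of basal-list UMIs were left out of an alternative. Sums were tested with edgeR 4.0.16 in R 4.3.3 (quasi-likelihood, filterByExpr with 10 counts and 15 in all, TMM scaling, mouse as a block because both classes come from the same animal, adjusted p 0.05) and with DESeq2 1.42.0 as an alternative. Genes that set the classes were not counted as results. The printed CPM carry no scaling factors. Named genes were the 10 largest changes each way among called genes from 20 CPM with both mice in 1 direction, the 10 largest folds each way from 50 CPM for C8 against C13 and between the mice, the 20 highest Fano factors, and the members of the gene lists and markers. Only 1 residual degree of freedom stood behind each fit within C8, so that the spread was borrowed across genes (30.04 prior degrees of freedom in the depth comparison, no finite limit in the other 2). Counts were also simulated with the same spread for every gene and the same change in both mice. On them, 36.4%, 91.0% and 100% of genes changed by 0.58, 1 and 2 on the log2 scale were recovered for dividing cells, 45.5%, 89.6% and 100% for casein and 18.2%, 71.6% and 97.0% for depth, with 6.17%, 6.55% and 0% false calls. The spread of real genes may differ, so these rates hold for the simulated counts only. Python 3.11.15, numpy 2.4.6, pandas 2.3.3 and scipy 1.17.1 were used. Gene lengths were not needed, as levels are compared within a gene. Passing cells held 34552742 and 32408391 UMIs.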

Additional observations from a re-analysis of the deposited data

Results flagged for a closer look

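The change of a gene between dividing and non-dividing cells differed between C8 and C13 for 200 genes by an interaction term in edgeR's quasi-likelihood test, with the adjustment over 11686 genes, and 13 of these are named genes. All values below are log2 changes in C8 minus those in C13. *Csn3* differed by -1.44, falling in both mice in C8 and rising in both in C13. *Aldh1a3* differed by -3.53, at 0.79 and 2.12 CPM in non-dividing and 10.1 and 18.7 CPM in dividing C13 cells, against 29.0 and 39.6 and 20.2 and 37.0 CPM in C8. *Anln*, a protein of the cleavage furrow, differed by -2.82, rising from 5.15 to 43.8 and from 6.59 to 48.5 CPM in C8 and from 1.97 to 106 and from 1.41 to 90.2 CPM in C13. *H2-Eb1* differed by -2.45, *Mfge8* by -0.43 and *Lcn2* by 0.38, the last with an edgeR adjusted p of 0.085 under another scaling. *Slfn2* (-4.17) and *Ccl9* (-3.61) were near 0 in non-dividing C13 cells, so that their fitted values are no bound. *Gpsm2* (1.82), *Crcp* (2.35), *Pacs1* (2.64), *Fabp4* (2.64) and *Wfdc12* (2.76) differed the other way. In dividing C13 cells *Pacs1*, at 3.37 and 1.70 CPM, and *Crcp*, at 5.06 CPM or less, rest on few UMIs. So do *Wfdc12*, at 6.74 and 10.2 CPM, and *Fabp4* in G_1, at 6.74 CPM. The levels of *Aldh1a3* in non-dividing C13 cells rest on few UMIs too. Within C8 the mice disagreed on *Wfdc12*, at -0.24 in G_1 and 0.53 in G_2. Within C13 *Fabp4* changed by -3.80 in G_1 and -0.88 in G_2. From thinned counts *Aldh1a3*, *Lcn2*, *Crcp* and *Pacs1* lost their call (edgeR adjusted p 0.067, 0.44, 0.34 and 0.68).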

How the results depend on the processing

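In C8 the number of genes called depended on the tool and the depth, and the direction of the named genes seldom did. Dividing over non-dividing cells gave 4125 genes, but 1236 with DESeq2, 2278 with no filter on low counts, 253 against a change of at least 1 on the log2 scale, 2203 from thinned counts and 2746 within the middle depth class. Casein-high over casein-low gave 3789 genes, but 953, 127, 1839 and 1483 with DESeq2, the minimum change, thinned counts and non-dividing cells alone. Deep over shallow gave 2539 genes, but 514, 43, 893 and 267 under the same 4. With no replicate block, that is without pairing the classes of a mouse, the counts were 1316, 1550 and 364. Without scaling factors the split of higher and lower calls was 3174 and 1149 for dividing, 1865 and 1959 for casein and 1907 and 813 for depth. The dividing share was 57.0% with a threshold of 3 UMIs and 39.5% at 2000 UMIs, and 43.9 to 48.7% with 1 mouse left out. Genes at least 2-fold apart between C8 and C13 numbered 1342, but 2339 from 20 CPM, 607 at 4-fold and 1456 to 1494 with 1 mouse left out, and between the mice 14 from 20 CPM in place of 9. The difference between C8 and C13 in the change with division gave 348 genes with no filter and 109 (42 higher, 67 lower) from thinned counts, in place of 200. Of 876 tested values of single genes 798 kept their call, 65 lost it, 4 gained it and 9 turned direction, all in the comparison by depth. In non-dividing cells alone these were *Ube2c* (-0.75), *Csn1s2b* (0.49), *Csn3* (0.48) and *Elf5* (0.24), and with cells split at the median depth *Csn1s2a* (-0.075), *Csn2* (-0.019), *Glycam1* (-0.27), *Thrsp* (-0.19) and *Wap* (-0.27). The cause was not tested. None of 156 values from 1 mouse alone was counted as turned, but this was partly fixed in advance. The largest changes had been chosen with both mice in 1 direction, and genes without a call could not be counted as turned. With 2 mice, changes of 0.58 on the log2 scale were mostly missed in counts simulated with the same spread for every gene. In the fits of these data smaller changes were called, such as *Csn2* with division (-0.29). The runs within the middle depth class, in non-dividing cells, without scaling factors and without the *Wfdc12* cells, and the difference between C8 and C13, were added after seeing the data.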

Other observations

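The 3 cells annotated as C8 outside the pregnant mice came from both lactation libraries and from 1 post-involution library and held 5045, 2989 and 3740 UMIs, with 1660, 963 and 1526 genes. The C20 cells, which the authors removed as doublets of C8 and C13, numbered 103 and 205 and held 21148 and 11388 CPM of *Csn1s2a* beside 4814 and 3874 CPM of *Acta2*. Of 18 genes that respond to tissue dissociation, 3 were higher and 7 lower in dividing C8 cells and 2 higher and 8 lower in casein-high C8 cells, with medians of -0.09 and -0.06. Over all genes 17.8% were higher and 18.2% lower with division, and 17.8% and 15.6% with casein. Without scaling factors the split with division turned to 8 higher and 4 lower (median 0.04), and by both tools 0 were higher and 1 lower with casein, so that no direction is read from this list. *Fos*, the best known of them, stood at 1839 and 1262 CPM in C8 and 1415 and 630 CPM in C13.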
